A study of Mus musculus with 6 samples.

Results

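The genes of the splicing machinery were followed in nuclear RNA-Seq (nucRNA-Seq) data from cardiomyocyte nuclei of mouse left ventricles. Members were chosen by symbol alone, as protein-coding genes of the SR (Srsf), SF3 (Sf3a and Sf3b), Snrp, hnRNP (Hnrnp), Prpf and U2AF (U2af) families. The rule found 68 genes among the 54232 genes of the table: 11 SR, 9 SF3, 12 Snrp, 20 hnRNP, 13 Prpf and 3 U2AF genes. No measured value took part in the choice. Of these, 67 had a mean of at least 10 normalized read counts over the 6 libraries and were tested, whereas Srsf12 had 0 reads in each library, where a count of 0 allows up to 3 reads.

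The series comprised 3 UtyGT and 3 WT libraries of adult male mice. UtyGT mice carry UtyGt(XS0378)Wtsi, a gene trap in the fourth intron of the Y-linked Uty gene, present in all cells and derived from 1 ES cell line of 129P2/OlaHsd origin. WT mice are the isogenic strain C57BL/6.Y<129P2>, so that both groups had a Y chromosome of 129P2 origin on a C57BL/6J background. Nuclei were sorted with PCM1 as the marker of cardiomyocyte nuclei, at 150000 nuclei per library. Each library bears 1 of the numbers 11, 15 and 31, once in UtyGT and once in WT, and library values are given in that order throughout. How many animals gave each library is not given in the sources used here, and p-values therefore measure the spread between libraries, which may be partly technical.

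Introns are removed from pre-mRNA by the spliceosome, which assembles anew on each intron from small nuclear ribonucleoproteins (snRNPs) and many further proteins. SR proteins bind mostly exonic sequences and recruit the early components, whereas hnRNP proteins coat nascent RNA and often act against exon inclusion. Many of these genes limit their own expression by splicing in an exon with an early stop codon, which directs the transcript to nonsense-mediated decay (NMD).

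Reads were counted per gene, so the values below sum transcripts that encode the protein and transcripts that do not. In the GENCODE M21 annotation, 34 of the 67 tested members (50.7%) had at least 1 NMD transcript, against 28.9% of the 12492 tested protein-coding genes. Retained-intron transcripts were annotated for 50 members (74.6%), against 59.0% of those genes. The median share of exon bases lying outside coding transcripts was 31.6% in members and 15.1% in the same background. A total of 18 exons in 16 members held the stop codon of an NMD transcript and overlapped no exon of a coding transcript. For 4 of these genes, which include the hnRNP gene with the smallest p in the comparison of numbers below, the exon is shown from its first base to that stop codon, which is in capitals. Reads of these exons are part of each gene's count and cannot be separated from it here.
Srsf3: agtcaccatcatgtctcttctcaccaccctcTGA
Srsf7: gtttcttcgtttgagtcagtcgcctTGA
Hnrnpl: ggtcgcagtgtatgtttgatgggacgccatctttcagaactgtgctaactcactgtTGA
Snrpb: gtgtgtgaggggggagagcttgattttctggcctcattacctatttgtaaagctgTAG
On GRCm38, these stretches lie at chr17:29039454-29039487 on the plus strand (Srsf3, first 34 bases of an exon of 456), chr17:80205054-80205081 on the minus strand (Srsf7, 28 of 460), chr7:28817335-28817393 on the plus strand (Hnrnpl, 59 of 70) and chr2:130176695-130176752 on the minus strand (Snrpb, 58 of 124).

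The libraries held between 19900137 and 22876369 gene reads in UtyGT and between 18204752 and 23252887 in WT. Uty had 22.1, 14.1 and 19.9 normalized counts in UtyGT, against 1212, 1332 and 1314 in WT. The 10 ventricular cardiomyocyte markers summed to between 2072180 and 2346300 normalized counts in UtyGT and to between 2090000 and 2474800 in WT. Markers of other cell types were also present, with no marker at 0 in all libraries. All 7 leukocyte markers had a log2 fold change below 0 (median -0.86), as did the 7 fibroblast markers (median -0.43) and the 5 erythroid markers (median -0.47), and none passed the limma test. Their sums overlapped between the groups: 691 to 15168 in UtyGT and 1679 to 20688 in WT for leukocytes, 828 to 2365 in UtyGT and 746 to 3712 in WT for fibroblasts, and 515 to 996 in UtyGT and 626 to 1256 in WT for erythroid cells. The 7 endothelial and 7 mural markers had medians of -0.04 and -0.01, with sums of 991 to 1040 in UtyGT and 814 to 1735 in WT for endothelial cells, and 1523 to 1649 in UtyGT and 1562 to 1864 in WT for mural cells. The part of these markers in the values of the members was not tested. The first principal component of all tested genes, with 73.3% of the variance, set both number 15 libraries apart from the other 4.

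At the level of whole genes, no tested member of the splicing machinery passed the test between UtyGT and WT nuclei. With limma, 0 of the 67 members differed between the groups at an adjusted p under 0.05, against 0.00617% of the 16202 genes tested, which is Uty alone. At an unadjusted p under 0.05 the limma count was also 0 of 67, against 1.2% of all genes. Both edgeR and DESeq2 likewise called 0 members at either level, but their shares over all genes are not given here. Every member had an adjusted p of 0.9996 with limma. Ddx3y, a Y-linked gene next to Uty, also had an adjusted p of 0.9996 with limma, at a log2 fold change of -2.82. It had 230, 257 and 87.8 normalized counts in UtyGT, against 1334, 1143 and 1211 in WT. The limma test thus missed a difference of that size, and the absence of a call does not by itself show an absence of change. The median log2 fold change of the members was 0.01, with 37 above and 30 below 0, against a median of -0.01 over all genes. Log2 fold changes ranged between -0.29 for Snrpa and 0.24 for Hnrnpa0. In bulk nuclei, fewer nuclei of a type and less RNA per nucleus cannot be told apart.

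For 59 of 67 members (88.1%) the 95% interval of the fold change lay within 1.5-fold in either direction, against 54.3% of all genes. The members were also more abundant than the typical gene, with a median mean count of 937 against 204. The interval reached beyond 1.5-fold for 8 members (Sf3b5, Snrpa, Snrpb2, Snrpd1, Snrpe, Snrpg, Hnrnpa0 and U2af1l4) and therefore included differences of that size for these genes. The median interval of a Snrp gene extended 0.47 on the log2 scale to each side, against 0.21 for an hnRNP gene.

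**Figure D1:**
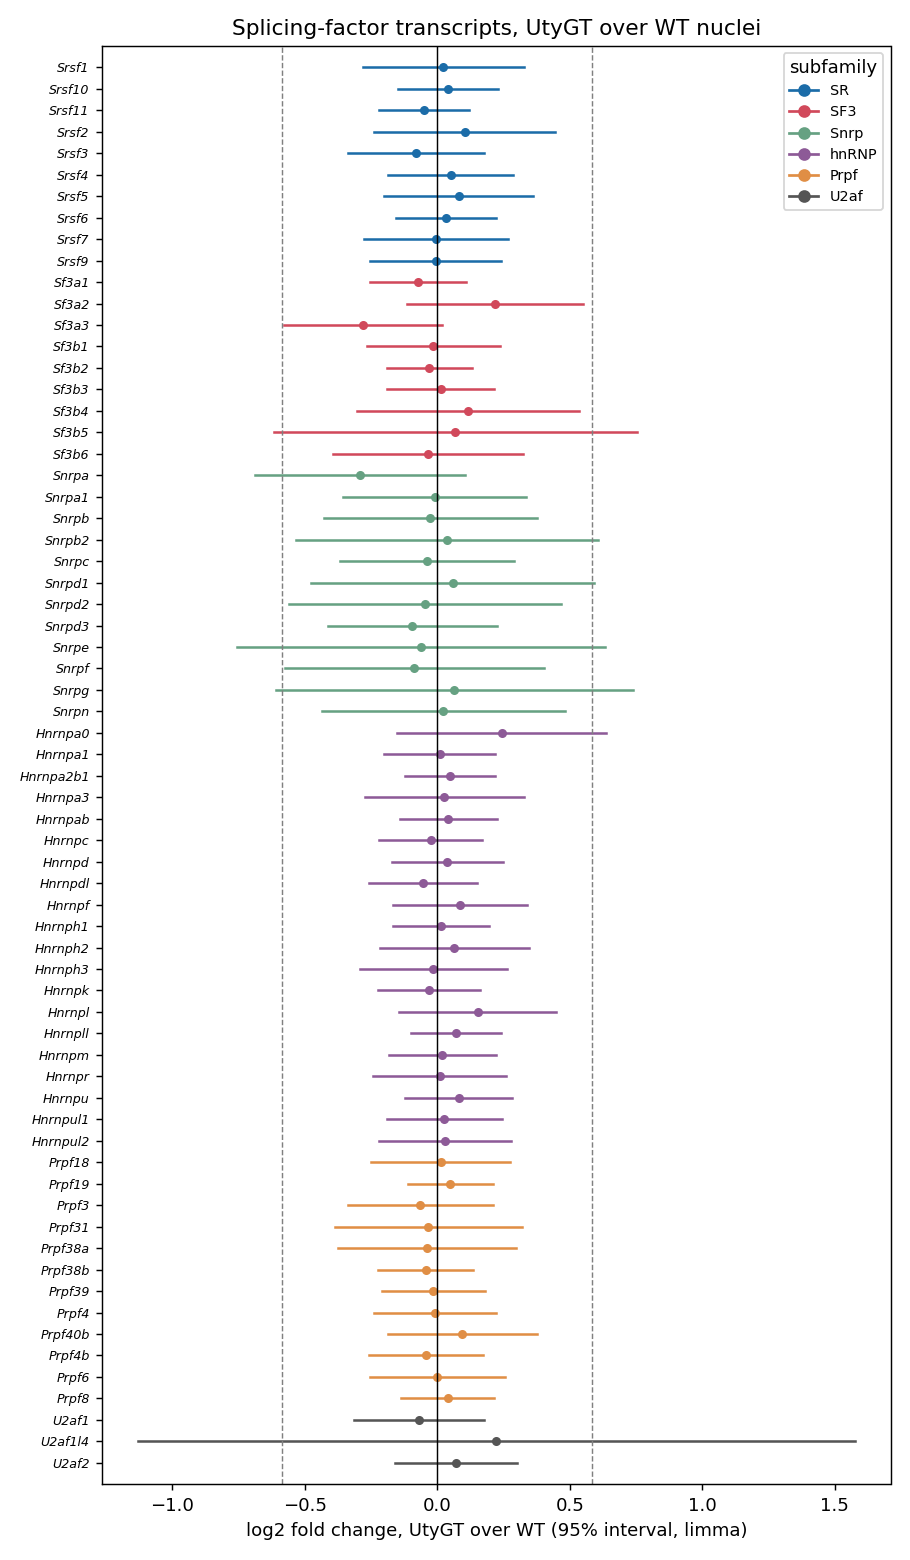
Log2 fold change of 66 of the 67 tested members (points) with its 95% interval from limma (lines), UtyGT over WT, n = 3 libraries per group, colored by subfamily; dashed lines mark a 1.5-fold difference. All 66 intervals shown include 0, and the widest is that of U2af1l4.

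SR genes were among the most abundant members, and none of the 10 measured passed the test. All 10 intervals lay within 1.5-fold. The median log2 fold change was 0.03, with 6 above and 4 below 0, but 2 of 10 were above 0 without UtyGT 15 and 9 of 10 without UtyGT 11. Srsf2 encodes an SR protein of nuclear speckles and had 4210, 6223 and 5225 normalized counts in UtyGT, against 4885, 5070 and 4461 in WT. UtyGT 15 was the highest and UtyGT 11 the lowest library, so that the groups overlapped. The log2 fold change was 0.10 (95% interval -0.24 to 0.44), but -0.03 without UtyGT 15 and 0.25 without UtyGT 11. Srsf5 had 6336, 7664 and 6653 in UtyGT and 7192, 5638 and 6743 in WT, with a log2 fold change of 0.08 (-0.20 to 0.36), or -0.02 without WT 15. Here the highest and the lowest library were both of number 15, in UtyGT and WT.

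Srsf1, the first SR protein to be described as a splicing factor, had 2578, 3490 and 2716 normalized counts in UtyGT, against 3104, 2800 and 2680 in WT. UtyGT 15 was above and UtyGT 11 below the other libraries, with a log2 fold change of 0.02 (-0.28 to 0.33). Srsf3, the smallest SR protein, gave 1971, 2518 and 2160 in UtyGT and 2345, 2491 and 2166 in WT. At -0.08 (-0.34 to 0.18), its fold change on the log2 scale was the most negative of the SR genes, and the groups overlapped. Srsf11, an SR-related protein, had 2934, 3208 and 3036 in UtyGT and 3080, 3105 and 3319 in WT, with a log2 fold change of -0.05 (-0.22 to 0.12). The remaining SR genes had log2 fold changes between -0.01 for Srsf9 and 0.05 for Srsf4.

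SF3A and SF3B are parts of the U2 snRNP, which binds the branch point, and the U2AF proteins recognize the 3′ splice site. None of the 9 SF3 or 3 U2AF genes passed the test. The member with the smallest p was Sf3a3. It had 207, 223 and 255 normalized counts in UtyGT, against 286, 292 and 253 in WT. UtyGT 31 was above WT 31, so that the groups overlapped, and the log2 fold change was -0.28 (95% interval -0.58 to 0.02, SE 0.13). Sf3a2, which encodes another subunit of SF3A, had 409, 446 and 400 in UtyGT and 401, 295 and 391 in WT. WT 15 was the lowest library, and the log2 fold change was 0.22 (-0.11 to 0.55), or 0.08 without that library. Sf3a1 encodes the remaining SF3A subunit and had 993, 1011 and 1025 in UtyGT, against 1072, 994 and 1124 in WT, with a log2 fold change of -0.07 (-0.26 to 0.11). Fold changes of the genes for these subunits of 1 complex thus lay on both sides of 0.

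Sf3b1, which holds the branch point in U2 snRNP, had 5093, 6364 and 6508 normalized counts in UtyGT and 6073, 6038 and 5932 in WT. The WT libraries were close to each other, the UtyGT libraries lay on both sides of them, and the log2 fold change was -0.01 (-0.27 to 0.24). U2af2, whose protein binds the polypyrimidine tract, had 1327, 1452 and 1311 in UtyGT and 1361, 1151 and 1391 in WT. U2af1, whose protein binds the terminal AG of the intron, had 351, 415 and 369 in UtyGT and 400, 375 and 415 in WT. The log2 fold changes were 0.07 (-0.16 to 0.30) for U2af2 and -0.07 (-0.32 to 0.18) for U2af1, and both sets of libraries overlapped. U2af1l4, a paralog of U2af1, was the least abundant tested member, with 10.5, 26.3 and 7.3 in UtyGT and 15.9, 11.98 and 6.5 in WT. These values rest on 6 to 28 reads per library, and 72.8% of its exon bases overlap exons of other genes, and the interval of its log2 fold change of 0.22 is wide (-1.13 to 1.58).

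Snrp genes encode the Sm proteins, which form a ring on the spliceosomal snRNAs, and proteins specific to the U1 and U2 snRNPs. They were the least abundant subfamily and the one with the largest spread between libraries. The median log2 fold change of the 12 genes was -0.03, with 4 above and 8 below 0, but quantile normalization gave 8 above 0 and a median of 0.01, and without UtyGT 11 there were 7 above 0. Snrpa encodes a U1 snRNP protein and had 264, 402 and 335 normalized counts in UtyGT, against 447, 373 and 391 in WT. Its log2 fold change of -0.29 (95% interval -0.69 to 0.11, SE 0.17) was the most negative of all members, and it was -0.13 without UtyGT 11 and -0.44 without UtyGT 15. Snrpb, which encodes the Sm B proteins, had 309, 397 and 477 in UtyGT and 415, 418 and 357 in WT, with a log2 fold change of -0.03 (-0.43 to 0.38). The lowest and the highest library were both UtyGT libraries.

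Snrpg, which encodes an Sm ring protein, had 50.5, 47.0 and 85.7 normalized counts in UtyGT and 56.3, 47.9 and 65.9 in WT, with a log2 fold change of 0.06 (-0.61 to 0.74). In both groups number 31 was the highest library. Snrpn, an imprinted gene that is active on the paternal allele and encodes an Sm protein of brain and heart, had 138, 129 and 162 in UtyGT and 127, 179 and 121 in WT. Its log2 fold change was 0.02 (-0.44 to 0.48), and 44.1% of its exon bases overlap other genes, among them Snurf. Across the 6 libraries, the median SD of a Snrp gene was 0.23 on the log2 scale, against 0.12 that counting error alone would give at these read numbers. For hnRNP genes the same values were 0.09 and 0.04, and over all genes tested they were 0.21 and 0.10.

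Prpf genes encode proteins of the U4/U6·U5 tri-snRNP and of later spliceosomal complexes. All 13 intervals lay within 1.5-fold, with 5 log2 fold changes above and 8 below 0 and a median of -0.01. Prpf8, the scaffold of the catalytic center, had 2064, 2224 and 2261 normalized counts in UtyGT and 2235, 2055 and 2084 in WT, with a log2 fold change of 0.04 (-0.14 to 0.21). Prpf31, which holds the tri-snRNP together, had 222, 285 and 235 in UtyGT and 231, 291 and 238 in WT. In both groups the number 15 library was the highest, and the log2 fold change was -0.03 (-0.39 to 0.32).

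Among hnRNP genes, 16 of 20 had a log2 fold change above 0, with a median of 0.03 and a range between -0.06 and 0.24. That majority turned on 1 library: without WT 15, 8 of 20 were above 0 and the median was -0.02, and quantile normalization gave 13 of 20. Hnrnpl, whose protein binds CA-rich RNA, had 6963, 9278 and 7393 normalized counts in UtyGT and 6537, 7681 and 6931 in WT. UtyGT was above WT within each number, but the groups overlapped, and the log2 fold change was 0.15 (95% interval -0.15 to 0.45). It was 0.03 without UtyGT 15, 0.10 without WT 11 and 0.24 without UtyGT 11. Hnrnpll, its paralog, had 748, 772 and 757 in UtyGT and 709, 722 and 739 in WT. It was the 1 member of 67 whose groups did not overlap, with a log2 fold change of 0.07 (-0.10 to 0.24). All UtyGT libraries were above all WT libraries in 3.1% of all genes tested, and below them in 2.32% (0 members). Hnrnpa0, an A/B-type hnRNP, had 443, 460 and 558 in UtyGT and 514, 363 and 367 in WT, with a log2 fold change of 0.24 (-0.15 to 0.64), which lay between 0.14 and 0.41 without 1 library. WT 11 was above UtyGT 11 and UtyGT 15.

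Hnrnpu, a nuclear matrix-associated protein, was the most abundant member by count, with 8115, 8633 and 8020 normalized counts in UtyGT and 8228, 7102 and 8137 in WT. Its log2 fold change was 0.08 (-0.12 to 0.28), and WT 15 was the lowest library. Hnrnpf, whose protein binds runs of G, had 440, 461 and 501 in UtyGT and 480, 398 and 445 in WT, with a log2 fold change of 0.09 (-0.17 to 0.34). Of the 100-base stretches of its transcripts, 49.4% also occur in transcripts of other genes, so that its value is uncertain. Hnrnpa1, which often silences exons, had 2004, 2033 and 1788 in UtyGT and 1927, 1790 and 2069 in WT. Hnrnpa2b1, its close relative, had 5241, 5210 and 5098 in UtyGT and 5354, 4901 and 4795 in WT. The log2 fold changes were 0.01 (-0.20 to 0.22) for Hnrnpa1 and 0.05 (-0.12 to 0.22) for Hnrnpa2b1. Hnrnpa1 also shares 25.9% of its 100-base stretches with other genes.

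Hnrnpc binds U-rich tracts and had 1152, 1287 and 1211 normalized counts in UtyGT, against 1290, 1268 and 1155 in WT. Hnrnpk binds C-rich RNA and had 2204, 2208 and 2340 in UtyGT, against 2521, 2201 and 2189 in WT. The log2 fold changes were -0.02 (-0.22 to 0.17) and -0.03 (-0.23 to 0.16) for these genes, and in each case the highest library was WT 11. Of all members, 7 had over 25% of their exon bases in exons of other genes, which besides Hnrnpf (26.5%), Srsf2, Snrpn and U2af1l4 were Snrpf (85.4%), Srsf4 (43.0%) and Hnrnpab (29.1%). For Hnrnpf, Srsf2, Snrpf, Srsf4 and Hnrnpab these other exons lie only on the opposite strand. Whether their reads entered the counts is not known, since the strand setting is not given. With matches on either strand, 15 members shared over 10% of their 100-base stretches with other genes. Among them were Snrpf (78.3%), Srsf4 (36.3%), Sf3b4 (32.5%), U2af1l4 (30.3%) and Hnrnpa3 (25.6%), in part through the same overlaps.

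Levels can be compared between genes only per length. Per kb of annotated exon, the median over members was 349.6 normalized counts for SR genes, 305 for hnRNP, 149 for U2AF, 112 for Prpf, 98.5 for SF3 and 43.5 for Snrp genes. Srsf2 was highest, with 1695 normalized counts per kb, followed by Srsf5 with 1681 and Hnrnpl with 1254. Per kb of the exons of coding transcripts the order was another, with 4048 for Srsf5, 2645 for Hnrnpl and 2503 for Srsf2. Of the exon bases of Srsf2, 25.3% lie in exons of other genes, on the opposite strand. Hnrnpu, first by count, had 693 per kb over its longer exons. The lowest values were 7.91 for U2af1l4 and 18.6 for Sf3b5. Whether reads were counted over exons or whole genes is not given in the sources used here, and the length includes retained introns and NMD exons. With the exons of coding transcripts alone the medians were 695 for SR and 68.6 for Snrp genes.

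**Figure D2:**
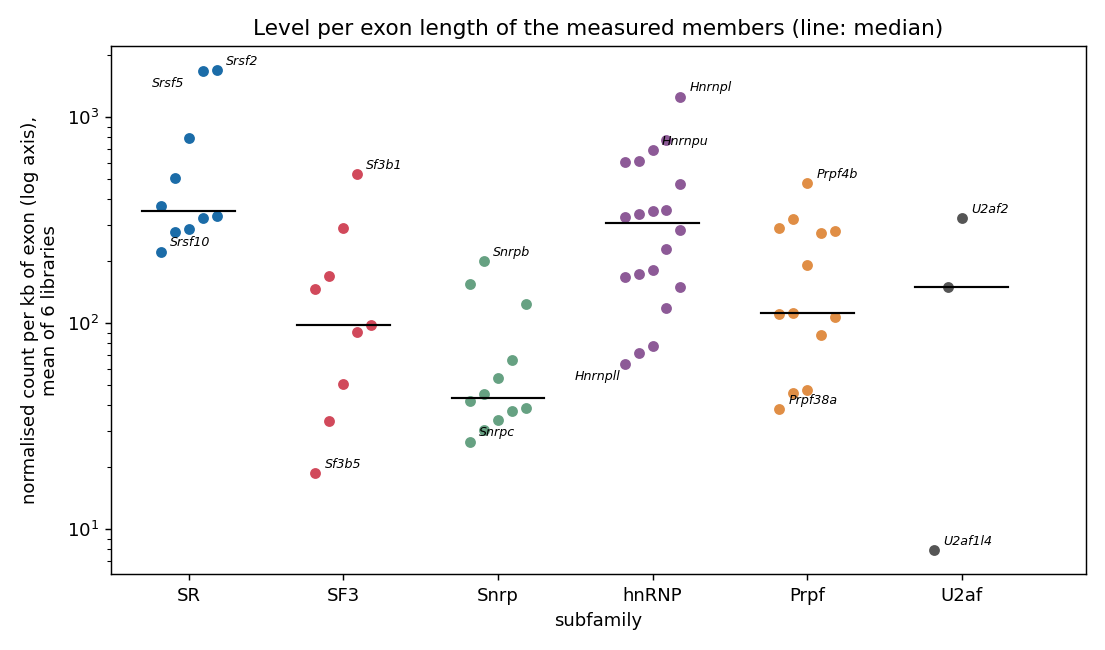
Mean normalized read count per kb of exon over the 6 libraries (log axis) for each tested member, by subfamily, with the subfamily median as a line. SR and hnRNP genes lie highest, at medians of 349.6 and 305, and Snrp genes lowest, at 43.5.

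As a share of all gene reads, the members took 0.478%, 0.524% and 0.485% in UtyGT and 0.506%, 0.470% and 0.528% in WT. The means were 0.495% ± 0.025 in UtyGT and 0.501% ± 0.029 in WT (SD, n = 3 each), a difference smaller than either SD. SR genes took 0.133% ± 0.013 in UtyGT and 0.134% ± 0.0063 in WT, and hnRNP genes 0.216% ± 0.0069 in UtyGT and 0.215% ± 0.015 in WT. Snrp genes took 0.0086% ± 0.00086 in UtyGT and 0.0094% ± 0.00048 in WT. Shares depend on Gm26917, an abundant RNA that took between 12.1% and 18.5% of gene reads, and without it, Malat1 and mitochondrial genes the members took 0.685% ± 0.040 in UtyGT and 0.682% ± 0.020 in WT.

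**Figure D3:**
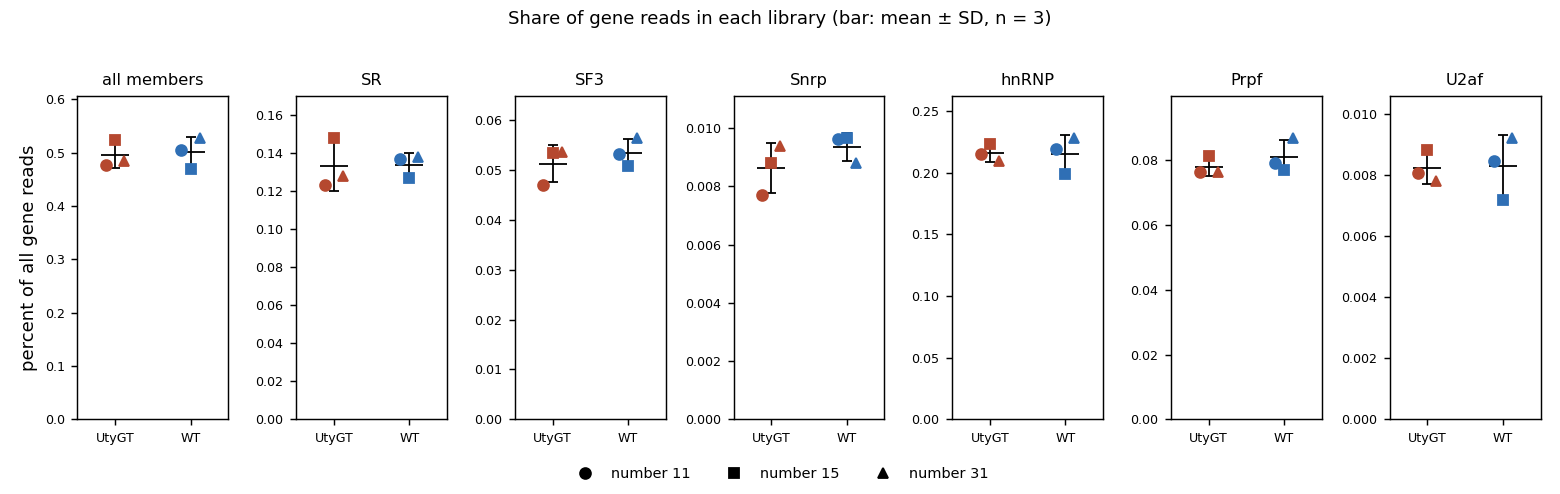
Percent of all gene reads taken by all members and by each subfamily in each library, UtyGT left of WT, with mean ± SD (n = 3); marker shape gives the library number and each panel has its own axis from 0. The shares of all members lie between 0.470% and 0.528%, with both groups overlapping.

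The libraries of equal number were then compared with each other, which gives 1 UtyGT and 1 WT library per pair and no replicate check within it. That equal numbers form pairs is an assumption for numbers 11 and 31. Over all genes, UtyGT 31 correlated more with WT 11 (0.73) than with WT 31 (0.41). The direction differed between the pairs, and across the members themselves equal numbers did not deviate together, with correlations of -0.07, 0.09 and 0.07 for numbers 11, 15 and 31 (over 67 genes, which share their libraries). Within number 11, 15 of 67 members were higher in UtyGT, with a median log2 difference of -0.10. Within number 15, 51 of 67 were higher, including each of the 10 SR and 20 hnRNP genes, with a median of 0.09. Within number 31, 36 were higher, with a median of 0.03, but 10 of the 12 Snrp genes, with a Snrp median of 0.36. Over all genes, 48.0%, 47.4% and 53.1% were higher in UtyGT within numbers 11, 15 and 31. TMM or quantile scaling left 49 of 67 members higher within number 15, and 19 of 20 hnRNP genes, with 10 SR genes under TMM and 9 under quantile scaling. Within number 11, quantile scaling gave 23 of 67 members and 5 of 12 Snrp genes higher in UtyGT, against 15 of 67 and 1 of 12 with the deposited scaling, while 57.5% of all genes were higher. Within number 31 the count lay between 35 and 37 of 67 under these scalings.

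Accordingly, few members moved one way in all 3 pairs. UtyGT was higher in each pair for 3 members (Sf3a2, Hnrnpl and Hnrnpll), against 8.51% of all genes, and lower for 2, among them Prpf31, against 8.89%. UtyGT 11 was the lowest of the 6 libraries for 22 of 67 members (32.8%), against 11.5% of all genes, and UtyGT 15 the highest for 20 (29.9%), against 17.4%. WT 15 was the lowest for 20 members (29.9%), against 17.6% of all genes, and 10 of these 20 members were hnRNP genes.

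**Figure D4:**
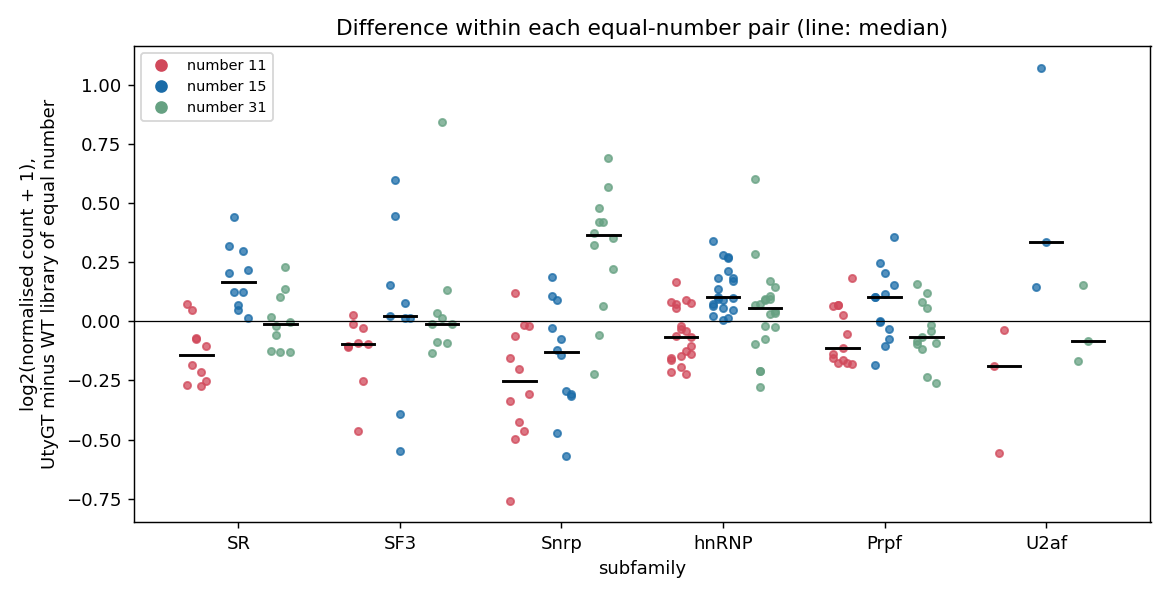
Difference in log2(normalized count + 1) between the UtyGT and the WT library of equal number, 1 point per tested member, by subfamily and number, with medians as lines. SR and hnRNP points lie above 0 within number 15, and most Snrp points lie above 0 within number 31.

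**Figure D5:**
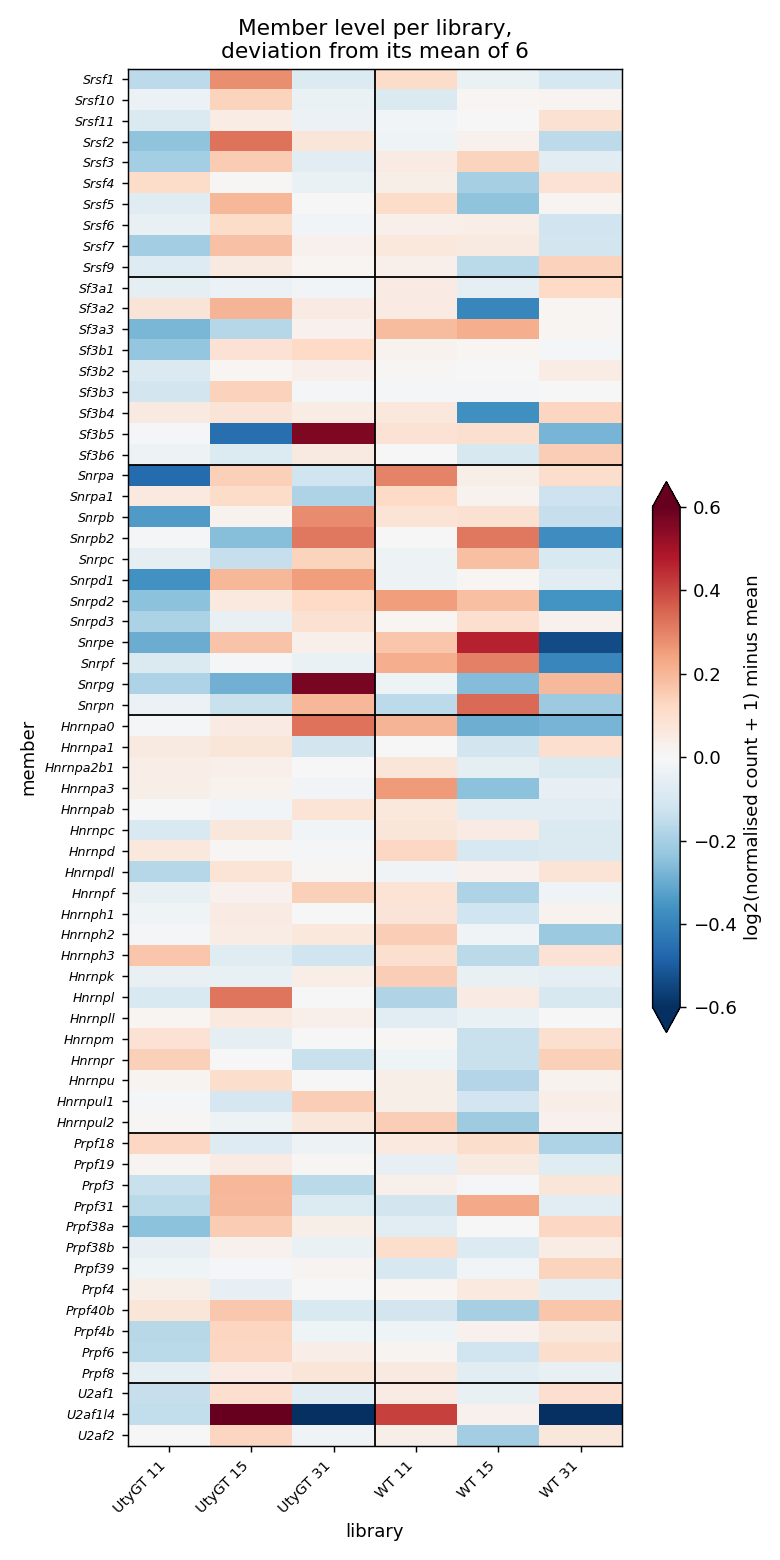
Deviation of 66 of the 67 tested members from their mean over the 6 libraries on the log2 scale, UtyGT libraries left of WT libraries, members grouped by subfamily; colors saturate at 0.6. UtyGT 15 is the highest library for 7 of 10 SR genes and WT 15 the lowest for 10 of 20 hnRNP genes.

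Although the libraries of different number differed widely, members of the splicing machinery did not pass the test for it. In a limma F test of the number, 0 of 67 members passed at an adjusted p under 0.05, against 4.79% of all genes, and 0 of 67 had an unadjusted p under 0.05, against 9.57%. Counts by edgeR and DESeq2 were 0 at both levels, but their shares over all genes are not given here. The members with the smallest p in that test were Hnrnpl, Snrpg, U2af1l4, Prpf31, Srsf2 and Srsf3, with limma adjusted p values between 0.75 and 0.99. The ratio of the highest to the lowest of the 6 libraries was under 1.5 for 55 of 67 members (82.1%), against 52.4% of all genes. The members were also more abundant, with a median mean count of 937 against 204, and abundance was not matched. The ratio was under 1.5 for 10 of 10 SR and 19 of 20 hnRNP genes, but for 4 of the 12 less abundant Snrp genes. On average over both groups, number 15 differed from the mean of numbers 11 and 31 by a median of 0.11 for SR genes, -0.06 for hnRNP genes and 0.12 for Snrp genes on the log2 scale, against 0.02 over all genes. Of the 6 members with the smallest p, Prpf31 (0.31), Hnrnpl (0.28), Srsf2 (0.26) and Srsf3 (0.22) were higher in number 15. U2af1l4 was also higher (0.84, on 6 to 28 reads per library), and Snrpg was lower (-0.41). These differences are given as a description. Markers of leukocytes moved with the number: all 7 passed the F test, and their summed level was 691 in UtyGT 15 and 1679 in WT 15, the lowest sum in each group. Their part in the values of the members was not tested.

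Genes of the pathway outside the rule were tested in the same way. In lists chosen by role, 0 of 116 tested genes passed between UtyGT and WT with limma, against 0.00617% of all genes. An unadjusted limma p under 0.05 was found for 0 of the 116, against 1.2% of all genes. Of 46 further snRNP and early spliceosomal genes, 24 had a log2 fold change above 0, with a median of 0.00. The smallest p values were for the Sm-like genes Lsm6, with 126, 92.1 and 130 normalized counts in UtyGT and 155, 163 and 132 in WT (log2 fold change -0.38, -0.81 to 0.06), and Lsm4, with 117, 123 and 104 in UtyGT and 139, 145 and 122 in WT (-0.24, -0.59 to 0.11). Lsm6 was lower in all UtyGT libraries than in any WT library, which held for 2.32% of all genes tested and also for other genes of this list.

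Of 28 genes of the Prp19-associated and catalytic complexes, 13 were above 0, with a median of -0.01. Cdc40 and Slu7, which act in the second step of splicing, had log2 fold changes of 0.12 (-0.08 to 0.32) and -0.12 (-0.39 to 0.14). Of 16 SR-related proteins and SR kinases, 6 were above 0, with a median of -0.02. Srpk3, a muscle SR protein kinase, had a log2 fold change of -0.13 (-0.35 to 0.10), and Tra2a, an SR-like activator, one of 0.08 (-0.11 to 0.27). Of 24 hnRNP and related genes with other names, 13 were above 0, with a median of 0.00. The paraspeckle genes Sfpq and Pspc1 had log2 fold changes of 0.08 (-0.09 to 0.25) and -0.10 (-0.33 to 0.13). Ptbp3, a paralog of the polypyrimidine tract-binding protein, was the only gene of these lists to pass the F test of the number (limma adjusted p = 0.028). Over all genes tested, 4.79% passed that F test. Ptbp3 had 222, 103 and 365 normalized counts in UtyGT and 473, 154 and 323 in WT. Number 15 was the lowest library in both groups.

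Of the 11 spliceosomal snRNA genes listed by symbol, 9 were in the deposited data. Of these 9, 2 had a mean of at least 10, both of the minor spliceosome, and 3 were at 0 in each library. Other snRNA genes were not examined, so these values give no measure of how abundant the major spliceosomal snRNAs are. Rnu11 had 86.3, 94.9 and 53.3 normalized counts in UtyGT and 76.0, 72.8 and 38.9 in WT. Rnu12 had 37.9, 49.8 and 37.6 in UtyGT and 57.2, 25.8 and 28.1 in WT. The groups overlapped for both, with log2 fold changes of 0.33 (-0.48 to 1.14) and 0.25 (-0.58 to 1.08).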

How the data were processed

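Nuclear RNA of sorted cardiomyocyte nuclei was sequenced as 100-base paired-end reads from a stranded total RNA kit. According to the methods and the submitters' processing notes, the authors aligned reads to GRCm38 with STAR 2.5.1b and obtained gene-level counts by featureCounts 1.6.0 with Ensembl gene models. The strand setting and the counted feature are not given in the sources used here. The deposited values are a signal, in which the read counts of a library share 1 size factor, and the authors did not divide them by gene length. The deposited columns of the authors' DESeq2 comparison (mean, log2 fold change, standard error, statistic, p-value and adjusted p-value), which run WT over UtyGT, were not used. A second deposited table holds the 4 libraries of numbers 11 and 31, normalized separately.

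All values above 0 (100%) were whole multiples of 1 read, with a tolerance of 0.0001 reads, and these reads served the count tests. The groups were tested with limma-trend (version 3.58.1 in R 4.3.3), UtyGT over WT, on log2(normalized count + 1), a scale on which the change of low genes is understated, over 16202 genes with a mean of at least 10, two-sided, with Benjamini-Hochberg adjustment over all of them and a threshold of 0.05. Numbers were compared with an F test with group as covariate. Alternatives were other pseudocounts, filters and scalings, edgeR 4.0.16, DESeq2 1.42.0, the number as a replicate block, the table of 4 libraries and leaving out each library. Fits were also run on simulated counts, with an outcome not given here. For the group test these counts held no difference between numbers. They therefore do not show what difference that test would find in these data. Exon lengths, overlaps, transcript kinds and exon sequences are from GENCODE M21 (GRCm38), which may differ from the annotation used for counting. Rows without a gene name held at most 0.011% of reads.

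As a check of pairing, deviations from the group mean were correlated between libraries of the same number, with correlations across genes of 0.25, 0.80 and 0.41 for numbers 11, 15 and 31, although crossed numbers gave 0.73 (UtyGT 31 with WT 11) and 0.41 (UtyGT 11 with WT 31). Equal numbers were taken as pairs since all 3 were above 0.1, a cut that the crossed numbers also passed. The check could therefore not choose between these pairings, and the pairing remains an assumption for numbers 11 and 31. The labels state that each strain was processed on several days without assigning numbers to days. Libraries of a group differed beyond sampling noise (chi-square per degree of freedom 15.5 to 48.6). The members and gene lists were chosen with earlier results of these data known. Members named in the text are those with the 6 smallest p values in each direction and for the number, the 6 highest means, those below the filter, and 16 chosen for their roles. In the lists, at most the 2 smallest p values and any gene that passed are named. Values of 1 tested member that the rule named are not reported here.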

Additional observations from a re-analysis of the deposited data

How the results depend on the processing

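No member was called between UtyGT and WT, or between the numbers, under any alternative run, including edgeR, DESeq2 and each fit without 1 library. With the number as a replicate block in limma, the median log2 fold change of the members was 0.012 and 0 of 67 were called, and the block changed no call among the members or pathway genes. Over all 16202 genes, 2 were called with the block in limma against 1 without it, and 399 against 195 had an unadjusted p under 0.05. Such counts over all genes are not given here for edgeR and DESeq2. Without 1 library in turn, that median lay between -0.014 and 0.039, and it was -0.038 in the table of 4 libraries, so its sign is not fixed. The difference in the members' share of gene reads, UtyGT minus WT, was -0.0060 percentage points and lay between -0.021 and 0.0072 without 1 library. Of 502 values of 28 members chosen by the naming rule under 18 alternatives, 33 had the other sign than in the fit reported, none of them called. Leaving out 1 library moved the value of many named members by over 1.5 times, with no call gained. The median spread of Snrp genes between libraries, an SD of 0.23 on the log2 scale, was larger than the 0.12 of counting error. Over all genes tested it was also larger, at 0.21 against 0.10. The counts of each subfamily above 0 without 1 library or under TMM and quantile scaling, and the counts within pairs under those scalings, were chosen after seeing the data.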
